A study of Homo sapiens with 8 samples.

Results

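The comparison described here is that of untreated U6A cells expressing T387A STAT2 with untreated U6A cells expressing wild-type STAT2, read on 1 bead array of each line. These 2 arrays are part of a series of 8, in which each line was also sampled after 4, 8 and 24 h of interferon-β (IFN-β) at 100 IU/ml. U6A is a human fibrosarcoma line without endogenous STAT2, so the STAT2 in both lines came from the introduced gene. Which promoter drives it, and whether each line is 1 clone, is not stated in the labels. The probes of the table stood for 20045 genes, each read by its brightest probe on average, and the untreated lines were judged on the 7576 genes with an intensity of 50 or more on at least 1 of the 2 untreated arrays. There is no replicate of either untreated array, so a difference at 0 h has no error of its own and no test, and genotype, culture and array cannot be told apart in it.

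STAT2 is a transcription factor that works with IRF9 after type I interferon binds its receptor, in a complex that switches on genes whose promoters hold the interferon-stimulated response element. T387A replaces a threonine of STAT2 with alanine, which cannot carry a phosphate. Without added interferon, many cells keep a low level of the same antiviral genes, and the comparison asks whether the lines differ before treatment. STAT2 was not analysed here, which leaves the labelled genotypes without a check on STAT2 itself.

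The untreated arrays had a Pearson correlation of 0.989 across the 7576 genes on the log2 scale, which is a description across genes and not across replicates. All 7576 genes were above 10.7 on both arrays, the floor to which lower intensities were set, taken as the size of percentile 1 of the values (-10.7). The cells carried 12 of 15 fibrosarcoma and mesenchymal markers at 50 or more, among them vimentin (VIM) at an intensity of 7231.6 in T387A and 7360.5 in wild type. FN1 and COL6A2 were dim and THY1 was under the floor. None of 10 epithelial markers and none of 8 measured blood markers reached 50. Of 7 endothelial markers only PECAM1 did, at 71.8 in T387A and 50.6 in wild type.

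The lines were much alike before interferon. In T387A 148 of the 7576 genes (1.95%) were at least 1.5-fold higher than in wild type and 161 (2.13%) at least 1.5-fold lower, together 309 (4.08%). At 2-fold there were 18 higher (0.238%) and 21 lower (0.277%), together 39 (0.515%). The median log2 difference was 0.028, and 90 in 100 genes lay between -0.42 and 0.42. Under the same rule the lines were at least 1.5-fold apart in 318 genes (4.21%) after 4 h, 296 (3.92%) after 8 h and 513 (6.74%) after 24 h, so the untreated pair had a share close to those at 4 h and 8 h.

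Most of the large differences belonged to dim genes. Of 1662 genes with a level from 50 to 100 on the brighter untreated array, 11.6% were at least 1.5-fold apart, 96 higher and 96 lower in T387A. Of 1227 genes at 1000 or more it was 0.652%, 5 higher and 3 lower. Only 2 of the 39 genes at least 2-fold apart had a level of 100 or more. The SD over genes of the log2 difference was 0.394 in the dimmest class and 0.173 in the brightest, and it narrowed with level in the same way at 4, 8 and 24 h.

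**Figure D1:**
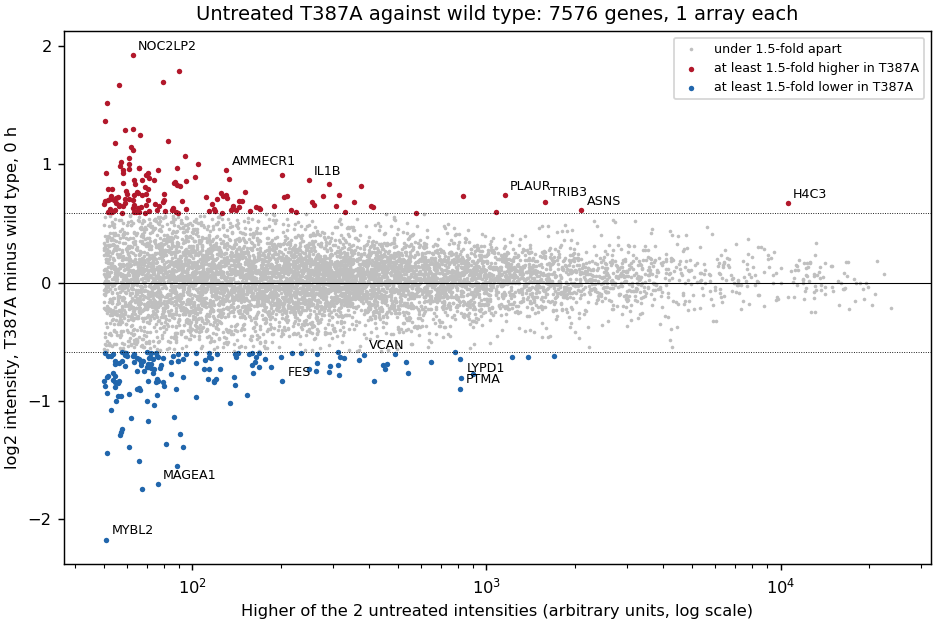
The log2 difference of T387A minus wild type at 0 h (vertical axis) is plotted against the higher of the 2 untreated intensities (log scale) for 7576 genes, with red points at least 1.5-fold higher and blue points at least 1.5-fold lower in T387A, and dotted lines at 1.5-fold. The cloud narrows with level, and ASNS, TRIB3, PLAUR and H4C3 are among the few bright genes past the upper line.

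**Figure D2:**
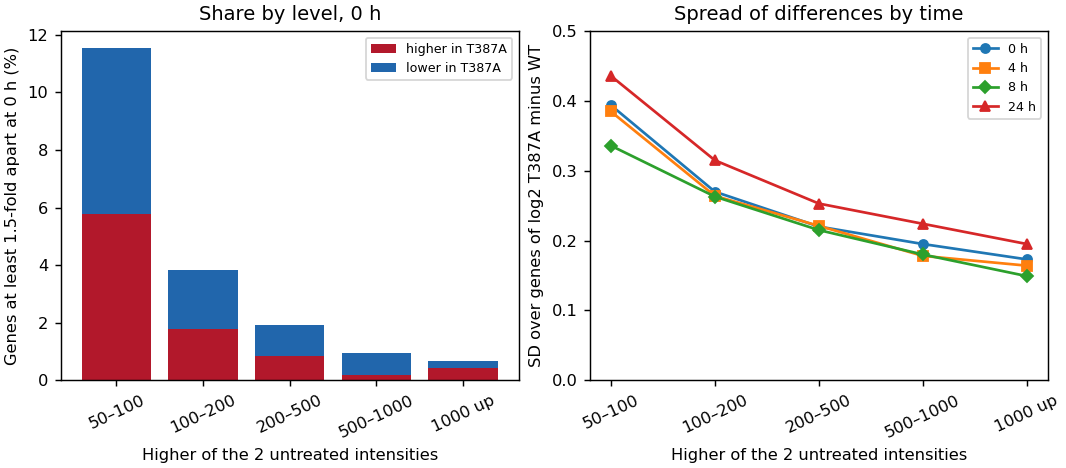
The left panel gives the share of genes at least 1.5-fold apart at 0 h by level class, 11.6% in the class from 50 to 100 and 0.652% in the class of 1000 or more. The right panel gives the SD over genes of the log2 difference between single arrays of T387A and wild type in the same classes at each time, and the 24 h pair lies above the others in every class.

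Genes of the integrated stress response stood higher in untreated T387A cells. In this response a block on translation initiation raises the translation of the transcription factor ATF4, which then drives genes of amino acid synthesis and transport and of stress signalling, many through an element called CARE. Of 22 such genes 18 were bright enough to be judged. Of these 5 were at least 1.5-fold higher in T387A and 0 lower, where 1.95% of all genes judged were higher. Among the 5, ATF3 met the level rule through T387A only, the line in which it is higher. Positive differences were found for 17 of the 18, against 55.2% of all genes judged, and the median was 0.45 on the log2 scale, against 0.03. This list, like the others below, was chosen with earlier results of these data known. Its excess over all genes judged is therefore a description and not an independent result.

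ASNS, which makes asparagine, had an intensity of 2100.9 in T387A and 1377.6 in wild type before interferon, a 1.53-fold higher level. At 4, 8 and 24 h it stood at 1476.4, 1395.0 and 2006.2 in T387A, against 950.6, 901.9 and 1321.5 in wild type. The log2 differences at 0, 4, 8 and 24 h were 0.61, 0.64, 0.63 and 0.60, so the gap was of one size at all 4 times although both lines were lower at 4 h and 8 h. A second, dimmer ASNS probe did not show the gap before treatment, with 478.2 in T387A and 494.9 in wild type (-0.05), but had differences of 0.58, 0.40 and 0.51 at 4, 8 and 24 h.

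TRIB3, a pseudokinase that ATF4 induces, had 1579.8 in T387A and 984.6 in wild type, 1.60-fold higher, with log2 differences of 0.68, 0.55, 0.27 and 0.60 at 0, 4, 8 and 24 h. DDIT3, the transcription factor CHOP, had 254.7 in T387A and 158.8 in wild type, also 1.60-fold higher, with 0.68, 0.38, 0.31 and 0.67. ATF3, a repressor of the same family as ATF4, was dim, at 65.9 in T387A and 43.7 in wild type, and its difference turned to -0.36 at 24 h. VLDLR, the receptor for very low density lipoprotein, had 143.9 in T387A and 89.0 in wild type, a log2 difference of 0.69 that was 0.10, 0.34 and 0.11 at the later times. Its antisense neighbour VLDLR-AS1 had the larger gap throughout.

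The rest of the list differed by less than 1.5-fold but mostly the same way. ATF4 itself had 7736.2 in T387A and 6008.8 in wild type, with log2 differences of 0.36, 0.42, 0.37 and 0.64 over the 4 times. Serine synthesis was represented by PHGDH, its first enzyme, with 3661.4 in T387A and 2678.9 in wild type (0.45), and by PSAT1 with 2810.1 and 2250.8 (0.32). The subunits of the amino acid transporter LAT1 did likewise: SLC7A5 had 2746.1 in T387A and 1921.5 in wild type (0.52), and its partner SLC3A2 had 726.2 and 529.0 (0.46; 0.61 on a further probe). CTH, which makes cysteine from cystathionine, had 160.2 in T387A and 110.7 in wild type (0.53). STC2, a secreted glycoprotein, was the exception, with negative differences at all 4 times (-0.13, -0.42, -0.46 and -0.22).

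The list kept its level difference under interferon. Its medians at 4, 8 and 24 h were 0.37, 0.35 and 0.36, on other arrays of the same lines, and 13 of 18 members were positive at all 4 times, against 12.2% of all genes judged. Other stress lists had smaller medians at 0 h and 0 members 1.5-fold apart, where 4.08% of all genes judged were. The median of 13 endoplasmic reticulum chaperones was 0.08, with 11 positive, that of 12 heat shock proteins was -0.03, with 5 positive, and that of 8 genes of the oxidative stress response was 0.17, with 6 positive. Positive at all 4 times were 3 of the chaperones, 4 of the heat shock proteins and 2 of the oxidative stress genes. No member passed limma in the treated arrays or over all times in the fit on all genes tested. ASNS had a difference of 0.62 ± 0.04 over the treated arrays (SE, 3 arrays against 3, limma adjusted p = 0.421). The number of members at least 1.5-fold higher was 2 with an offset in place of the floor and 3 with the mean of all probes or cyclic loess, while 17 members stayed positive under each of these.

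**Figure D3:**
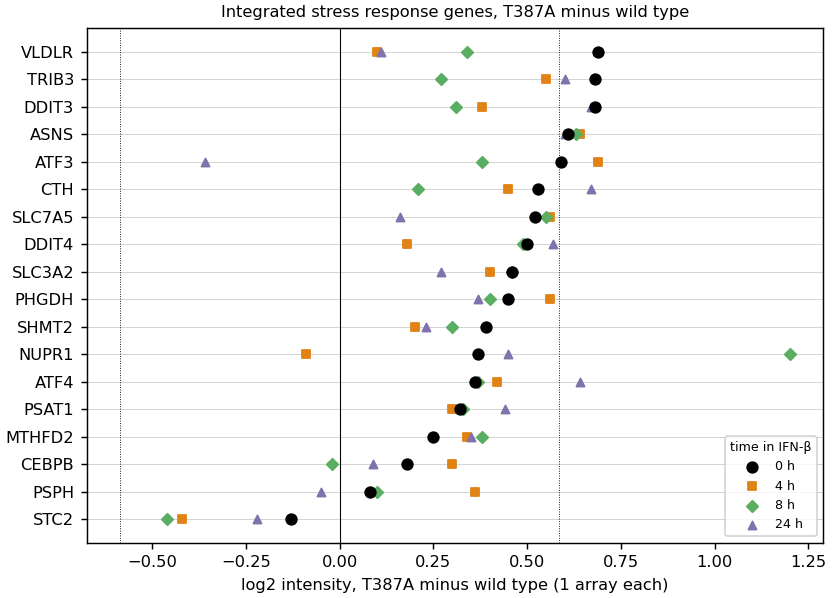
Each row is 1 of the 18 integrated stress response genes judged, and the symbols give its log2 intensity in T387A minus that in wild type at 0 h (black circles) and at 4, 8 and 24 h of IFN-β (coloured), each from 1 array per line; dotted lines mark 1.5-fold. All rows but STC2 have a black circle right of 0.

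Motif letters in the promoters of the stress response genes are shown because the list is defined by ATF4. RefSeq windows of GRCh38.p14, from 250 bases before to 50 after an annotated start, were given for 15 of the 18 members and searched for the CARE letters TGATGNAA on both strands. Matches were found in 3 of the 15 (20%), which were ASNS, ATF3 and SLC3A2, and in 182 of the 6316 genes judged that had a window (2.88%). The stretches of ASNS (chr7:97872444-97872501, minus strand) and ATF3 (chr1:212565191-212565248, plus strand) are given 5′ to 3′ on the strand of the gene, with the match in capitals.
ASNS: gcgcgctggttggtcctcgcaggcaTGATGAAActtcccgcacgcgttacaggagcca
ATF3: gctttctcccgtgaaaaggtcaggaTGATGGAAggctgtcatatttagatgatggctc
A match describes the letters only and does not show that a factor binds there.

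Antiviral genes showed a smaller and less even difference before interferon. Of 49 antiviral effectors 47 had a probe and 30 were judged. Of these 4 were at least 1.5-fold higher in T387A and 0 lower, where 1.95% of all genes judged were higher and 2.13% lower. Those shares are not matched for level, and many members were dim. At levels from 50 to 100, 96 of 1662 genes were higher, and from 100 to 200, 28 of 1566. Among the 4, IFI44 met the level rule through T387A only, the line in which it is higher. The median log2 difference was 0.16, against 0.03 over all genes judged. Positive differences were found for 21 members (70%) and negative ones for 8, where 55.2% of all genes judged were positive. After 4, 8 and 24 h of interferon its medians were 0.83, 0.50 and 0.20, and 20 members were positive at all 4 times (66.7%, against 12.2% of all genes judged). Since 30, 29 and 26 members were positive at 4, 8 and 24 h, that count mostly repeats the 21 positive at 0 h.

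IFI6, which limits the replication of flaviviruses, had 125.0 in T387A and 74.1 in wild type before interferon, 1.69-fold higher, and a further probe gave a log2 difference of 0.44. IFI27, a mitochondrial interferon-induced protein, had 355.4 in T387A and 221.6 in wild type, 1.60-fold higher. OAS3, an oligoadenylate synthetase that acts through RNase L, had 118.7 in T387A and 77.0 in wild type, 1.54-fold higher. IFI44 had 57.5 in T387A and 38.3 in wild type, at the 1.5-fold line. The kinase EIF2AK2 (PKR), which blocks translation on sensing double-stranded RNA, had 342.5 in T387A and 248.5 in wild type (0.46), and SAMD9 had 61.5 and 41.7 (0.56). On the probes used, all 6 kept a positive difference at 4, 8 and 24 h, while the further IFI6 probe gave -0.18 at 8 h. The count of members at least 1.5-fold higher was 1 with an offset in place of the floor, and no member passed limma in the fits on all genes tested. Those fits take the gap as the same at each time, so a gap that shrinks under interferon adds to their spread.

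Other antiviral genes were level or stood lower in T387A. IFIT1, which binds viral RNA, had 149.0 in T387A and 167.4 in wild type (-0.17), IFIT2 had 44.5 and 56.9 (-0.35), XAF1 had 50.1 and 61.8 (-0.30), and OAS2 had 62.3 and 71.3 (-0.19). These 4 had positive differences at 4 h, of 0.72, 1.22, 0.71 and 1.13. The tetherin gene BST2 had 594.6 in T387A and 580.5 in wild type, and IFITM3, which blocks virus entry, had 2052.6 and 1794.0. Probes of OAS1 did not give one direction at 0 h: the brightest gave 0.18 and the other 2 gave -0.40 and -0.21. Over further probes of the antiviral list 4 were positive and 4 negative at 0 h.

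OASL, an OAS-like protein that aids RNA sensing, fell just outside the level rule, with 46.0 in T387A and 11.4 in wild type. The wild-type value lies near the floor of 10.7. The gap of 2.01 on the log2 scale was 1.24, 0.86 and 0.79 at 4, 8 and 24 h, when both lines were far brighter (835.7, 1812.9 and 899.8 in T387A, against 353.2, 997.0 and 520.8 in wild type). When all 38 antiviral effectors above the floor on either untreated array were counted, 8 were at least 1.5-fold higher in T387A and 0 lower, where 6.46% of such genes were higher and 5.7% lower, and the median was 0.19.

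**Figure D4:**
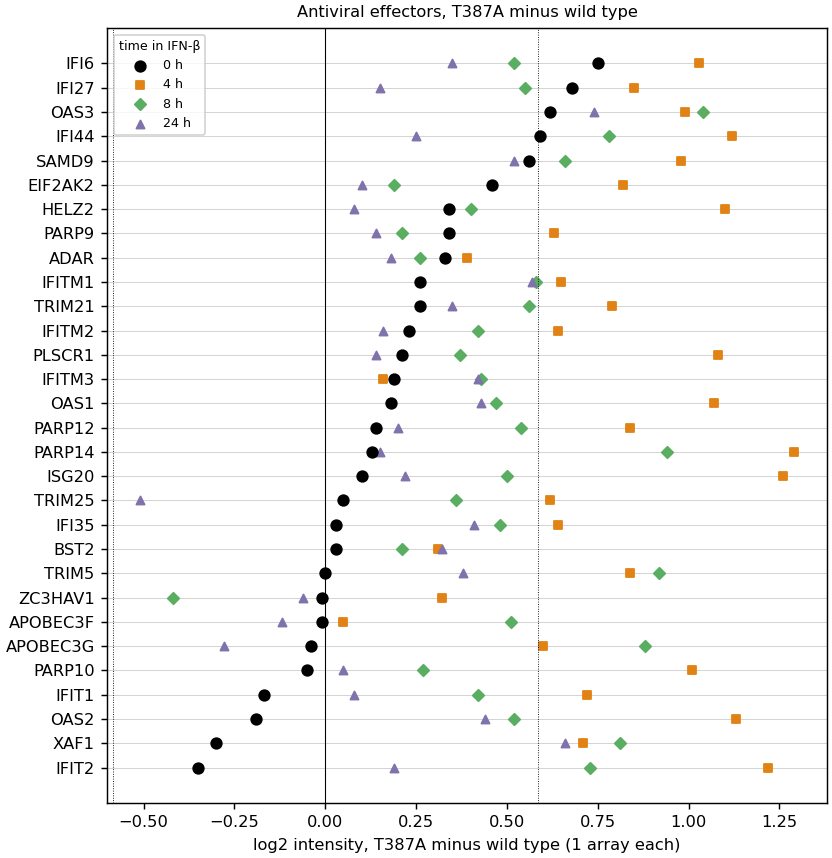
Each row is 1 of the 30 antiviral effectors judged, and the symbols give its log2 intensity in T387A minus that in wild type at 0 h (black circles) and at 4, 8 and 24 h of IFN-β (coloured), each from 1 array per line; dotted lines mark 1.5-fold. The black circles of 0 h lie between -0.35 and 0.75, and the orange squares of 4 h lie right of 0 in every row.

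Letters of the interferon-stimulated response element were found both in members that were higher in T387A and in others. GAAA, any 2 bases and GAAA again stood, on either strand, in 17 of the 24 antiviral members with a window (70.8%), against 241 of 6316 genes judged (3.82%). All 4 members at least 1.5-fold higher in T387A held a match. So did IFIT1, which was lower in T387A at 0 h (-0.17), and BST2, with a log2 difference of 0.03. The stretches are those of OAS3 (chr12:112938306-112938365, plus strand), IFI27 (chr14:94110616-94110675, plus strand), IFI6 (chr1:27672314-27672373, minus strand) and, as a member without a gap, IFIT1 (chr10:89392482-89392541, plus strand, match on the opposite strand). They are given 5′ to 3′ on the strand of the gene, with 1 match in capitals.
OAS3: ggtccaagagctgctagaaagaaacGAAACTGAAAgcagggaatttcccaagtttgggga
IFI27: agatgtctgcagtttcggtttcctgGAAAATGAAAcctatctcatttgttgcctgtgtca
IFI6: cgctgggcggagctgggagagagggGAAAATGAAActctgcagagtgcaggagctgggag
IFIT1: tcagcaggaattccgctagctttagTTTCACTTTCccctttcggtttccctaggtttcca

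No judged gene of the receptor and kinases upstream of STAT2 was 1.5-fold apart in the untreated lines. Of all genes judged 4.08% were, so 0 among so few genes does not set them apart. Of 14 genes of interferon signal transduction 9 were judged, of which 7 were positive (77.8%, against 55.2% of all genes judged). The median of 0.16 equalled that of the antiviral list. The receptor chains IFNAR1 and IFNAR2 had 71.8 and 74.6 in T387A, against 64.2 and 63.0 in wild type. The kinase JAK1 had 157.9 in T387A and 129.6 in wild type, and TYK2 had 291.9 and 287.2. The largest gap of the list was that of IRF9, through which the complex contacts DNA, with 223.2 in T387A and 158.5 in wild type, 1.41-fold higher (0.49). Under interferon its differences were 0.18, -0.02 and -0.39.

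Of the interferon genes themselves, all 9 ligand genes measured were under the floor on both untreated arrays, IFNB1 among them. Negative regulators of the pathway gave 7 judged genes with 0 past 1.5-fold, where 4.08% of all genes judged were. The largest was PIAS3, an inhibitor of STAT signalling, with 51.4 in T387A and 75.7 in wild type (-0.56). The feedback inhibitors USP18 and SOCS1 were too dim to judge.

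Among transcription factors related to interferon, IRF1 had 225.0 in T387A and 171.9 in wild type (0.39) and BATF3, a partner of IRF8 in dendritic cells, had 76.7 and 39.6 (0.95), a gap that was 0.48, -0.06 and -0.04 later. ISG15, the ubiquitin-like modifier, had 548.1 in T387A and 417.8 in wild type (0.39). Class I antigen presentation gave 13 judged genes, 0 past 1.5-fold (against 4.08% of all genes judged) and a median of 0.12. HLA-B had 168.3 in T387A and 194.1 in wild type. The chemokine CCL5 had 71.2 in T387A and 38.6 in wild type (0.88), and the cytokine IL1B had 248.8 and 136.7 (0.86). Both stayed higher in T387A, CCL5 by 1.28, 0.45 and 1.05 and IL1B by 0.97, 0.29 and 0.31 at 4, 8 and 24 h, while CXCL10 and TNFSF10 were under the floor in both untreated lines.

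The differences at 0 h were followed to 4, 8 and 24 h, on other arrays of the same lines, normalized together with those of 0 h. Across the 7576 genes the log2 differences at 0 h had Pearson correlations of 0.260, 0.241 and 0.179 with those at 4, 8 and 24 h. Genes are not independent replicates, each array enters through all its genes, and these values carry no test. Of the 309 genes at least 1.5-fold apart at 0 h, 113 (36.6%) had the same sign at all 3 later times, against 1932 of 7576 genes judged (25.5%). Among genes with a level of 200 or more the shares were 31 of 57 (54.4%), against 1188 of 4348 (27.3%). Of the 39 genes at least 2-fold apart it was 13 (33.3%).

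Only 11 genes were at least 1.5-fold apart in one direction at all 4 times, and they were singled out after their values were seen. Higher in T387A were AMMECR1, VLDLR-AS1, OAS3 and ASNS. Lower were MAGEA1, ARL3, GPER1, FES, SERPINE2, RBPMS2 and VCAN.

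MAGEA1, a cancer-testis antigen that is silent in most adult tissues, had the largest of these gaps. It stood at 23.4, 28.4, 36.0 and 23.2 in T387A at 0, 4, 8 and 24 h, against 76.4, 89.1, 107.5 and 89.8 in wild type. Every T387A value lay below every wild-type value, and the untreated gap was 3.26-fold. MAGEA1 was picked for a gap at every time, which favours such separation, and no share over all genes judged was counted. It met the level rule through wild type only, the line in which it is higher. The other 15 cancer-testis antigens judged, MAGEA3 and MAGEA12 among them, lay between -0.29 and 0.38 at 0 h on the probes used. Of 13 further probes of that list 9 were negative, with a median of -0.15, the lowest being one of MAGEB2 at -0.58. GAGE7, a cancer-testis gene outside the list with near-identical copies, had 529.7 in T387A and 903.5 in wild type (-0.77; -0.30, -0.17 and -0.37 later). Also outside it, VCX2 had 319.5 in T387A and 542.8 in wild type (-0.76), and VCY had 407.5 and 650.8 (-0.68). VCX2 was lower later by -0.43, -0.62 and -0.67, and VCY by -0.39, -0.31 and -0.41. Within the list 8 genes were positive and 8 negative at 0 h.

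Of 19 genes of the matrix and its turnover 1 was higher and 3 lower past 1.5-fold at 0 h, where 1.95% of all genes judged were higher and 2.13% lower, and the median was -0.04. VCAN, the matrix proteoglycan versican, had 250.8, 186.3, 196.5 and 132.4 in T387A at the 4 times, against 383.4, 302.5, 338.0 and 256.3 in wild type. SERPINE2, an inhibitor of thrombin and plasminogen activators, had 53.6, 41.0, 52.2 and 37.7 in T387A, against 93.3, 89.7, 95.8 and 62.6 in wild type. The collagenase MMP1 had 92.2 in T387A and 140.0 in wild type before interferon (-0.60) and was lower at each later time. PLAUR, the urokinase receptor, was the one matrix gene past 1.5-fold in the other direction, with 1153.5 in T387A and 692.3 in wild type. Its 3 probes gave 0.74, 0.77 and 0.56 at 0 h. Its ligand PLAU had 5643.4 in T387A and 4078.6 in wild type (0.47), a gap that was 0.13, -0.05 and 0.06 later.

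FES, a tyrosine kinase of myeloid and endothelial cells, stood at 113.0, 102.8, 92.1 and 114.1 in T387A, against 201.7, 166.9, 168.9 and 203.8 in wild type. AMMECR1 stood at 130.6, 131.0, 146.2 and 119.4 in T387A, against 67.7, 75.5, 82.9 and 66.8 in wild type. GPER1, a G-protein-coupled receptor for oestrogen, had 42.0, 41.7, 26.1 and 44.5 in T387A, against 75.4, 82.6, 71.6 and 90.2 in wild type. For each of these 3 genes the 4 values of T387A did not overlap those of wild type. They were picked for a gap at every time, which favours such separation, and no share over all genes judged was counted. The small GTPase ARL3 had 31.7 in T387A and 60.8 in wild type before interferon, and the RNA-binding protein RBPMS2 had 43.0 and 73.3. GPER1, ARL3 and RBPMS2 met the level rule through wild type only, the line in which they are higher.

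**Figure D5:**
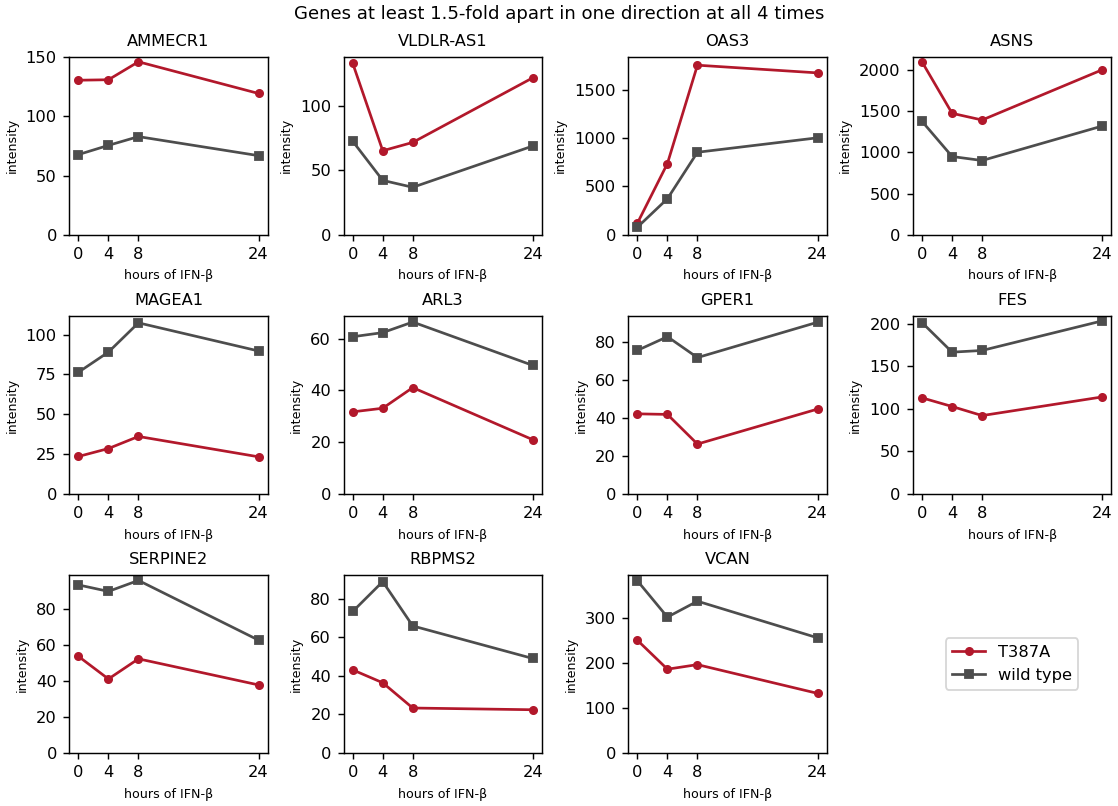
Intensity (arbitrary units, linear axes from 0) of the 11 genes at least 1.5-fold apart in one direction at all 4 times is plotted against hours of IFN-β, with T387A in red circles and wild type in grey squares, 1 array per point. The red line lies above the grey one in AMMECR1, VLDLR-AS1, OAS3 and ASNS and below it in the other 7; OAS3 is the one many times brighter at 4, 8 and 24 h than at 0 h in both lines.

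The treated arrays, which come from the same lines and were normalized with the 0 h pair but do not include it, gave a test of the genotype difference with time as a term. Over 13656 genes above the floor on at least 1 array, limma called 0 (0%) at an adjusted p under 0.05, with 1423 at an unadjusted p under 0.05. Over all 4 times, 4 arrays against 4, it also called 0 (0%), with 1496 at an unadjusted p under 0.05, and MAGEA1 came closest at -1.72 ± 0.09 (SE, adjusted p = 0.0871). The labels do not say that the times came from separate cultures. With 1 array per line and time, these p-values weigh the mean gap only against its spread over the times. That spread mixes differences between arrays with any change of the gap under interferon, which makes a changing gap harder to call.

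Limited to the 7576 genes judged, a restriction listed as an alternative, limma called 2 genes in the treated arrays (0.0264%). MAGEA1 fell by 1.73 on the log2 scale in T387A (adjusted p = 0.0144, and between 0.0144 and 0.636 over 15 settings). RBPMS2 fell by 1.31 (adjusted p = 0.0348, and between 0.0348 and 0.636). Both genes reached 50 at 0 h in wild type only, so the level rule kept them through the line in which they are higher. Over all times 38 genes were called (0.502%), 11 higher (0.145%) and 27 lower (0.356%) in T387A, among them both of these. Of the 38, 10 reached 50 at 0 h in wild type only and 4 in T387A only, and this fit uses the 0 h values by which the genes were kept. All 38 had one sign at all 4 times, and 27 of them were at least 1.5-fold apart at 0 h. The restricted fit over all times made more false calls on simulated data than the set rate, so these adjusted p-values may be too small. Without both arrays of 4, 8 or 24 h, settings added after seeing the data, the 38 became 2, 7 and 14, of which 2, 5 and 12 were among the 38.

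The 38 include all 11 genes at least 1.5-fold apart at every time, which follows from their selection on the same 8 arrays and adds no support. The higher ones included ASNS from the stress response (0.62, limma adjusted p = 0.0195, between 0.0195 and 0.712 over 21 settings). From the antiviral list they included OAS3 (0.85, adjusted p = 0.018, between 0.018 and 0.915) and SAMD9 (0.68, adjusted p = 0.033, between 0.033 and 0.938). They also included CCL5 (0.92), HSD11B1 (0.68), which regenerates cortisol from cortisone, STIM1 (0.72), the calcium sensor of the endoplasmic reticulum, and the protease inhibitor SLPI (0.58). On its second probe HSD11B1 had a log2 difference of 0.77 at 0 h. For CCL5 the limma adjusted p was 0.0356, and between 0.0356 and 0.908 over 21 settings. SAMD9, CCL5 and STIM1 met the level rule at 0 h through T387A only, the line in which they are higher.

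Lower ones included the chemokine CCL26 (-0.91) and the secreted peptide TFF3 (-0.98). Before interferon they stood at 37.5 and 23.8 in T387A, against 90.9 and 57.3 in wild type. Both met the level rule through wild type only. Others were PDK3, a kinase that restrains pyruvate dehydrogenase (-0.63), the retinoic acid carrier CRABP2 (-0.51) and the smooth muscle actin ACTA2 (-0.62). ACTA2 had 272.1 in T387A and 452.5 in wild type at 0 h. TAGLN, another smooth muscle gene, went the other way, with 202.1 in T387A and 107.6 in wild type (0.91; 0.58, 0.39 and 0.38 later), and was not called.

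Several of the largest differences at 0 h did not recur. MYBL2, a transcription factor of dividing cells, had 11.3 in T387A, next to the floor, and 51.0 in wild type (-2.17). With the floor doubled its difference was -1.25, and DLG1 then had the larger gap. MYBL2 was under the floor in both lines at 4, 8 and 24 h. Of 33 judged genes of replication and mitosis it was the one past 1.5-fold, while 26 of the 33 were positive with a median of 0.11. Of all genes judged 4.08% were past 1.5-fold and 55.2% were positive. DLG1, a scaffold protein of cell junctions, had 20.1 in T387A and 67.6 in wild type (-1.75; 0.02, -0.76 and -0.28 later). The carbonic anhydrase CA13 had 23.1 in T387A and 65.7 in wild type (-1.51), and was higher in T387A later, by 0.91, 0.61 and 1.20. NECAB1, a neuronal calcium-binding protein, had 79.5 in T387A and 24.6 in wild type (1.69; -0.23, 0.03 and -0.41 later).

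The pseudogene NOC2LP2 gave the largest gap upwards, with 62.8 in T387A and 16.6 in wild type (1.92), and stayed higher by 0.61, 0.82 and 0.39. Probes for ribosomal RNA differed as well. RNA28SN5 had 89.9 in T387A and 26.0 in wild type (1.79) and 2.17 on a second probe, and RNA18SN5 had 58.0 and 30.0 (0.95). The differences of RNA28SN5 were -0.36, 0.35 and 1.17 at the later times, and -0.84, 0.11 and 0.55 on its second probe. These genes have many near-identical copies, and whether carried-over ribosomal RNA moves with other differences was not tested.

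Bright genes past 1.5-fold at 0 h, named after their values were seen, also recurred unevenly. The histone gene H4C3, one of many near-identical histone H4 genes, had 10562.1 in T387A and 6623.4 in wild type (0.67; 0.33, -0.03 and 0.63 later). TAF15, an RNA-binding protein, had 832.1 in T387A and 500.5 in wild type (0.73; -0.51, 0.01 and -0.45 later). PTMA, prothymosin alpha, which has many processed copies, had 438.1 in T387A and 815.7 in wild type (-0.90) and was higher in T387A by 0.99 at 24 h. LYPD1 had 471.2 in T387A and 822.8 in wild type (-0.80) and stayed lower, by -0.63, -0.66 and -0.28. TCP1, a chaperonin subunit, had 1101.2 in T387A and 1696.9 in wild type (-0.62; -0.19, -0.28 and 0.21 later).

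Whether the gap at 0 h departs from the gap under interferon was tested as an interaction. Limma called 0 of 13656 genes (0%), with 1087 at an unadjusted p under 0.05 and a smallest adjusted p of 0.353, and 0 of the 7576 genes judged. MYBL2 had an interaction of -2.17 and CA13 of -2.42, each with limma adjusted p = 0.353. IRF9 had 0.57 (adjusted p = 0.754) and ASNS -0.01 (adjusted p = 0.973). Each untreated arm holds 1 array in this fit, whose spread is taken to equal that of the treated arrays.

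Housekeeping and metabolic lists are given beside these values, where 4.08% of all genes judged were 1.5-fold apart. That share was 0.652% at a level of 1000 or more and 11.6% from 50 to 100. Lists of bright genes, such as ribosomal protein genes, therefore give no scale for dim genes. Of 23 ribosomal protein genes 0 were 1.5-fold apart, with a median of -0.08 and a range from -0.42 to 0.17. Of 18 genes of oxidative phosphorylation 0 were, with a median of 0.01. Of 15 sterol synthesis genes 0 were, with a median of 0.10, and of 20 hypoxia and glycolysis genes 0 were, with a median of -0.04. The hypoxia and glycolysis list was not level, with 13 genes negative and 7 positive at 0 h. At all 4 times 10 of the 20 were negative, against 1010 of the 7576 genes judged. The medians of this list at 4, 8 and 24 h were -0.16, -0.13 and -0.15.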

How the data were processed

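Total RNA of U6A cells was labelled with biotin and read on Illumina bead arrays, per the labels' protocols, with 1 array for each of 2 lines and 4 times. The deposited table holds linear probe intensities, for which the submitters' processing notes name GenomeStudio; its version and settings are not stated there. Of all values 28.6% were at or below 0 and 78.6% of ranks held identical values on all 8 arrays, so the deposited intensities had been background-subtracted and quantile-normalized, and no further normalization was applied. The number of arrays limits the precision.

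Of 47315 probes 30111 carried 1 gene symbol and 8 several; 39 symbols had no current identifier. Of 20045 genes 6691 had several probes, and the probe with the highest mean over the 8 arrays was used. Intensities under 10.7, the larger of the median (6.1) and the size of percentile 1 (-10.7), were set to it before log2. Genes at 50 or more on 1 untreated array were judged at 0 h without a test, at 1.5-fold. Limma 3.58.1 (R 4.3.3, lmFit and eBayes, Benjamini-Hochberg, adjusted p under 0.05) tested T387A minus wild type over the treated arrays, over all times, and the 0 h difference minus the treated one, with time as a term. Fits were tested on simulated data. Promoter windows came from RefSeq (GRCh38.p14).

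Genes named are the 12 largest differences each way at 0 h, those 2-fold apart, the 8 largest each way with one sign at all times, up to 5 members of each list described, genes called by limma and single interferon genes; bright genes and further list members were added after their values were seen. The members and gene lists were chosen with earlier results of these data known. Alternatives were a doubled floor, an offset of 16, the mean of probes, cyclic loess, median scaling, other level and fold limits, a trended prior, no time term and omission of arrays. STAT2 was not analysed here.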

Additional observations from a re-analysis of the deposited data

How the results depend on the processing

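The number of genes at least 1.5-fold apart at 0 h, 309, was 80 with an offset of 16 in place of the floor, 117 among genes at 100 or more, 1414 among genes above the floor on either array and 39 at 2-fold; with other settings it lay within 1.5 times of 309. The median of the integrated stress response, 0.45, was 0.40 with the offset and 0.35 with the mean of probes. With the mean of probes 9 of 244 named genes changed sign, 3 of them at least 1.5-fold apart in the values reported: AHNAK (0.15), TMEM17 (0.18) and UPP1 (-0.05). The further AHNAK probes were dim, at 78.8 and 50.5 in T387A, against 896.0 on the probe used. TMEM17 and UPP1 had no further probe at 50 or more on either untreated array. With cyclic loess 2 named genes changed sign, with median scaling 1, and with the doubled floor or the offset 0, none of them at least 1.5-fold apart. The limma count over the treated arrays, 0, was 5 with the offset and 2 over genes judged. Over all times, also 0, it was 1 with the floor doubled, 7 with the offset, 1 with genes above the floor on 4 arrays, 38 over genes judged, 2 with a trended and robust prior, and 2, 7 and 14 over genes judged without both arrays of 4, 8 or 24 h. Leaving out each array in turn gave 0 to 0 calls in the treated and all-times fits, and likewise each treated array in the interaction, where the 0 h arrays cannot be left out. With time as a term, leaving out either array of a time gives the same fit, and the full fits also called 0. The interaction gave 0 under every setting run. Fewer genes are tested, and dim ones left out, in the fit over genes judged; the cause of the other shifts was not tested. The fits compare the lines within each time; without the time term the all-times count was also 0, with 813 genes at an unadjusted p under 0.05. No paired analysis was possible because the replicate number is 1 for every array, so pairing by it beyond time does not exist. Signal near the floor limits the dimmest genes.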
